A study of Homo sapiens with 18 samples.

Results

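Clones 2H1 and 2C11 are HCT116 colorectal carcinoma cells that carry the same change, R132H, in 1 of their IDH1 alleles (R132H/+), so a comparison of them asks how far 2 cell clones with 1 mutation differ in gene expression. Each clone was measured on 2 arrays of separate biological replicates, which makes 4 of the 18 arrays of the series. The cells were untreated and grown for 6 days. The other 14 arrays hold the parental line and 6 further clones, also 2 arrays each. The IDH1 R132C clones are 3A4 and 16F8, of which 16F8 makes no mutant transcript per its label, and the IDH2 clones are 8G12 and 17H5 (R140Q) and 45G3 and 47C2 (R172K), all heterozygous. Each line is a single clone, so the tests below compare the clones themselves. What the mutation does and what separates any 2 clones of a line cannot be told apart from 1 clone alone.

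IDH1 encodes the cytosolic isocitrate dehydrogenase, which makes 2-oxoglutarate, and the R132H enzyme instead reduces 2-oxoglutarate to 2-hydroxyglutarate. HCT116 is an epithelial line. Epithelial cells are joined by E-cadherin and tight junctions and keep an apical and a basal side, a state maintained by factors such as GRHL2 and the splicing regulators ESRP1 and ESRP2. In the epithelial-mesenchymal transition (EMT) repressors such as ZEB1, SNAI1 and SNAI2, which bind E-box sequences, turn down epithelial genes, and cytoskeletal and matrix genes such as VIM and FN1 go up. Transforming growth factor beta is a known inducer.

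Signals are linear array intensities as deposited, scaled so that the mean of the middle 96% of signals was 150.01 or 150.02 in every array, and differences are on the log2(signal + 2.2) scale, which understates changes of dim genes. Replicates of 1 clone correlated at 0.9842 to 0.9897 over all probe sets, and the arrays of 2H1 correlated with those of 2C11 at 0.9834 to 0.9837, within the range of 0.9698 to 0.9879 for arrays of different clones. Among the markers of a colon epithelial line, KRT8, KRT18, KRT19, EPCAM and CDH1 were bright in all 4 arrays, and CDH17 and LGALS4 had signals of at most 5.2. Markers of other cells were near the floor. Of 9 fibroblast markers 8 were under 13 in all 4 arrays, COL1A1 being the other at 188.6 to 278.8. Of 8 haematopoietic markers 7 were under 13, and all 5 endothelial markers were. The other haematopoietic marker, the lysozyme gene LYZ, had signals of 142.1 and 137.3 in 2H1 against 58.1 and 55.1 in 2C11 (log2 difference 1.27 ± 0.30 (SE), adjusted p = 0.0183). It did not pass without any 1 of the 4 arrays (adjusted p = 0.0903 to 0.134), and with an offset of 50 it gave 0.83. The part of other cell types in the results was not tested beyond these levels. The spiked poly-A controls were high in 2C11 replicate 1, at 131.3, and lay at 83.55 to 97.82 in the other 3 arrays of the pair.

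Of 12531 genes tested, 577 differed between 2H1 and 2C11 (4.6%) at an adjusted p under 0.05 by limma, 268 of them higher in 2H1 (2.14%) and 309 lower (2.47%). At least 2-fold differences numbered 89 higher (0.71%) and 97 lower (0.774%). The signal of a gene is a mean over the culture, so fewer cells expressing it and less RNA per cell cannot be told apart. The other pairs of clones with 1 mutation gave 420 genes (3.35%, 17H5 against 8G12) and 366 genes (2.92%, 47C2 against 45G3). Without 2H1 replicate 1 the count was 189, without 2H1 replicate 2 it was 277, without 2C11 replicate 1 it was 291 and without 2C11 replicate 2 it was 321, and 147 genes passed with all arrays and in each of these 4 fits, 58 higher and 89 lower. With the 4 arrays of highest poly-A controls given a term in the fit 772 genes passed, 540 of them also in the count of 577.

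**Figure D1:**
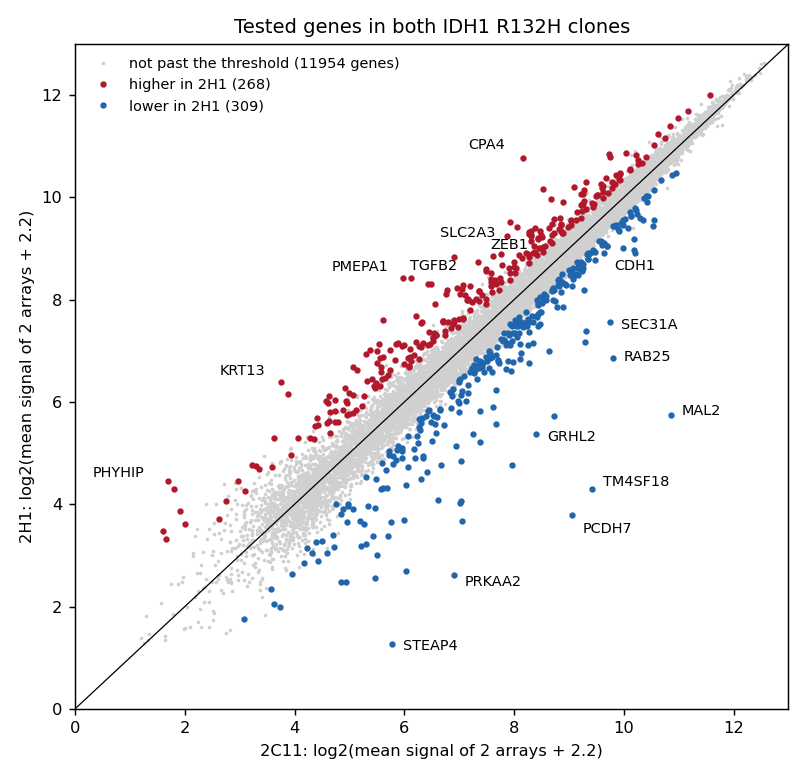
Mean signal of 2 arrays in 2C11 (horizontal axis) and in 2H1 (vertical axis) for 12531 tested genes, both as log2(mean signal + 2.2). The 268 genes higher in 2H1 and the 309 lower are coloured, and the farthest from the diagonal, PCDH7, TM4SF18 and MAL2, lie below it.

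IDH1 itself did not differ past the threshold. Its signals were 2284.4 and 2101.6 in 2H1 and 1722.7 and 1971.9 in 2C11, so that both arrays of 2H1 lay above both of 2C11, with a log2 difference of 0.25 ± 0.12 (adjusted p = 0.28). IDH2, the mitochondrial enzyme, had overlapping signals of 141.3 and 90.4 in 2H1 and 137.2 and 118.9 in 2C11 (log2 difference -0.17 ± 0.21, adjusted p = 0.731). The IDH2 difference turned to 0.14 without 2H1 replicate 2. The probe sets read both alleles together.

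Among the 12 tested EMT transcription factors 3 rose in 2H1 and 1 fell (33.3%, against 4.6% of all tested genes). The other 8 did not pass, and of the 12 differences 5 were positive and 7 negative. ZEB1, the repressor of epithelial genes, had signals of 384.3 and 429.7 in 2H1 against 224.8 and 208.5 in 2C11. The groups did not overlap, and the log2 difference was 0.90 ± 0.15 (adjusted p = 0.00103), a 1.87-fold higher level in 2H1. SNAI2, another E-box repressor, was dimmer, at 42.0 and 56.0 against 22.6 and 15.2 (1.29 ± 0.32, adjusted p = 0.0253). FOXQ1, a forkhead factor, rose from 161.0 and 158.8 in 2C11 to 476.0 and 376.6 in 2H1 (1.39 ± 0.25, adjusted p = 0.00225). SOX4 went the other way, with 589.4 and 570.3 in 2H1 against 1160.6 and 1175.8 in 2C11 (-1.01 ± 0.10, adjusted p = 6.39e-06). SNAI1 was dim, with signals of 7.6 and 15.1 in 2H1 against 14.7 and 15.4 in 2C11. TWIST1 had 152.9 and 116.8 in 2H1 against 189.3 and 135.8 in 2C11. In both SNAI1 and TWIST1 the arrays of the clones overlapped. The list had a median of -0.25, which turned to 0.27 with the probe set of highest variance for each gene and was -0.07 without 2H1 replicate 1, -0.04 without 2H1 replicate 2, -0.14 without 2C11 replicate 1 and -0.15 without 2C11 replicate 2. ZEB2, with signals of at most 3.1 in all 18 arrays, and CDH2, N-cadherin, with at most 12, were too dim to be tested. ZEB1 and SOX4 passed without any 1 of the 4 arrays. FOXQ1 did not pass without 2H1 replicate 1 (adjusted p = 0.0565), and SNAI2 did not without 2H1 replicate 1 (0.0765), 2H1 replicate 2 (0.204) or 2C11 replicate 2 (0.186). With an offset of 50 in place of 2.2 the SNAI2 difference was 0.52. Taken from its most variable probe set, ZEB1 gave 1.33 and did not pass (adjusted p = 0.174).

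CDH1, E-cadherin, had signals of 462.1 and 493.7 in 2H1 and 927.7 and 656.5 in 2C11, with a log2 difference of -0.71 ± 0.14 (adjusted p = 0.00506). Both arrays of 2H1 lay below both of 2C11, and the arrays of 2C11 were far apart from each other. EPCAM, an epithelial adhesion protein, lay at 1451.5 and 1397.9 against 1878.4 and 2071.3 (-0.47 ± 0.11, adjusted p = 0.0207). VIM, vimentin, lay at 416.1 and 366.2 in 2H1 and 264.4 and 212.3 in 2C11 (0.72 ± 0.16, adjusted p = 0.0147). FN1, fibronectin, lay at 401.6 and 349.5 against 202.8 and 153.6 (1.08 ± 0.21, adjusted p = 0.00603). The groups did not overlap in any of these 4 genes, as in 48.9% of all tested genes. None of the 4 calls held in every fit that left out 1 array of the pair and kept the other clones. CDH1 did not pass without 2H1 replicate 1 (adjusted p = 0.0734) or 2C11 replicate 1 (0.107, with a difference of -0.46), and VIM did not without 2H1 replicate 1 (0.168) or 2C11 replicate 2 (0.146). FN1 did not pass without 2H1 replicate 1 (0.0925) or 2C11 replicate 2 (0.0824), and EPCAM did not without 2H1 replicate 1 (0.103), 2H1 replicate 2 (0.133) or 2C11 replicate 2 (0.146). The 36 tested mesenchymal markers had a median log2 difference of 0.16, beside -0.02 over all tested genes. Of them 8 rose and none fell (22.2%, against 4.6% of all tested genes). That count was 0 without 2H1 replicate 1, 3 without 2H1 replicate 2, 3 without 2C11 replicate 1 and 2 without 2C11 replicate 2.

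Of 92 tested genes of the 6 epithelial lists 22 fell and 1, the claudin CLDN2, rose (25%, against 4.6% of all tested genes), with a median of -0.16. The other 69 did not pass. As the lists were chosen with earlier results of these data known, the share is a description. The median was -0.09 without 2H1 replicate 1. Without 1 array 15 to 18 of them fell, and CLDN2 did not pass (adjusted p = 0.132 without 2C11 replicate 1, 0.171 without 2C11 replicate 2, 0.175 without 2H1 replicate 2 and 0.188 without 2H1 replicate 1). With an offset of 50 CLDN2 gave 0.42. The members that fell differed widely in size, from -5.13 to -0.45 on the log2 scale. Epithelial surface proteins gave 11 lower of 24 tested and none higher (median -0.46). That count was 7 without 2H1 replicate 1, 7 without 2H1 replicate 2, 7 without 2C11 replicate 1 and 8 without 2C11 replicate 2. Polarity genes gave 3 of 18, tight junction genes 3 of 14 lower and 1 higher, adherens junction genes 2 of 13 and epithelial regulators 3 of 14. By limma none of 9 desmosome genes passed, and 4 were lower at an unadjusted p under 0.05. The share of all tested genes at that level is not given. The desmosome median of -0.16 turned to 0.04 with the probe sets of highest variance. Keratins, which are not among the 6 lists or in the score, lay the other way: of 10 tested, 2 rose and none fell, 8 were positive and the median was 0.23. The 2 that rose were KRT13, described further on, and KRT80, at 150 and 177.3 in 2H1 against 81.9 and 87.9 in 2C11 (0.93 ± 0.16, adjusted p = 0.00245), which just missed the threshold without 2H1 replicate 2 (0.05003). The number that rose was 3 without 2H1 replicate 1 and 1 without 2H1 replicate 2.

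Among the regulators, GRHL2, a grainyhead factor that maintains epithelial gene expression, had signals of 41.9 and 36.4 in 2H1 against 288.4 and 384.0 in 2C11. Both 2H1 arrays lay under the range of 57.0 to 559.8 of the 14 arrays of other clones, and the log2 difference was -3.02 ± 0.25 (adjusted p = 3.64e-07). ESRP1, an epithelial splicing regulator, fell less, from 1393.5 and 1200.4 to 748.7 and 751.9 (-0.78 ± 0.12, adjusted p = 0.000457). In the polarity list MAL2, a protein of apical transport, had signals of 49.7 and 52.5 in 2H1 against 1820.2 and 1896.5 in 2C11 and 559.3 to 2890.9 in the other clones (-5.13 ± 0.12, adjusted p = 8.08e-15). RAB25, a GTPase of apical recycling, had 115.7 and 112.9 against 923.7 and 860.0 (-2.94 ± 0.10, adjusted p = 1.59e-12). AP1M2, the epithelial subunit of the AP-1 clathrin adaptor, had 21.8 and 23.1 against 89.4 and 77.5 (-1.79 ± 0.17, adjusted p = 2.48e-06). These 3 genes of membrane traffic, GRHL2 and ESRP1 had their lowest level of the 9 clones in 2H1, while 4 clones lay above 2C11 in each. With an offset of 50 AP1M2 gave -0.88, still past the threshold.

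Among the surface proteins, S100A14 fell to 26.6 and 23.3 in 2H1 from 264.1 and 227.0 in 2C11 (-3.19 ± 0.18, adjusted p = 2.82e-09). ANK3, ankyrin G of the lateral membrane, fell by 2.52 on the log2 scale, PROM2 by 1.85, FXYD3 by 1.54, the membrane serine protease gene ST14 by 1.20 and TMC4 by 1.19. For ANK3 and FXYD3 both 2H1 arrays lay within the range of the other clones, and for PROM2, ST14 and TMC4 below it. Other, dimmer probe sets gave smaller differences for PROM2 and FXYD3. One of PROM2 gave -0.36, with mean signals of 23.85 in 2H1 and 31.45 in 2C11. One of FXYD3 gave -0.12, with 8.85 in 2H1 and 9.95 in 2C11. In the junctions CLDN7, a claudin, had 227.9 and 229.6 against 396.1 and 555.2 (-1.03 ± 0.17, adjusted p = 0.00105), NECTIN3 fell by 0.64 and OCLN, occludin, by 0.52. All genes in this paragraph passed without any 1 of the 4 arrays. With an offset of 50 the sizes of the dim genes shrank by more than 1.5 times, to -1.98 for S100A14, -1.17 for ANK3, -0.97 for PROM2, -0.55 for FXYD3 and -0.76 for TMC4, and all stayed past the threshold. The OCLN probe set of highest variance gave -0.53 and did not pass (adjusted p = 0.146).

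**Figure D2:**
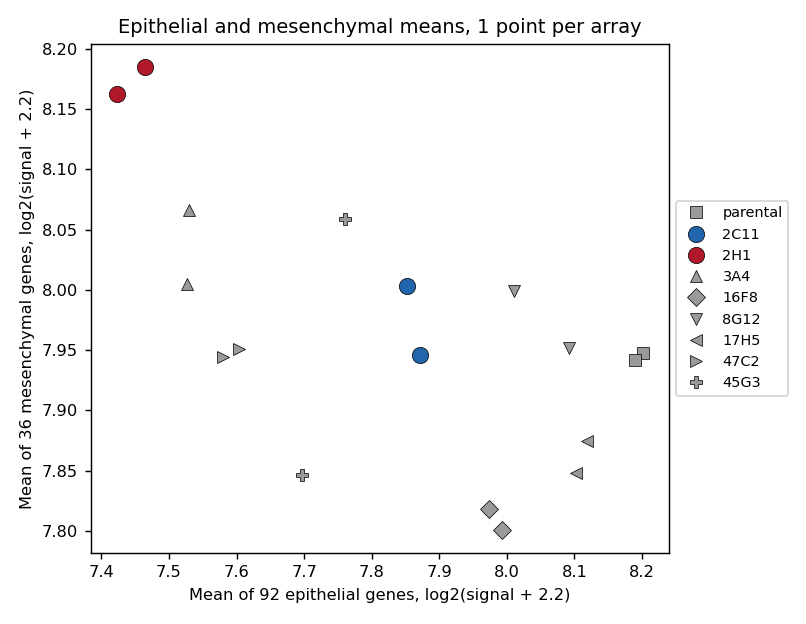
Mean log2(signal + 2.2) of 92 epithelial genes (horizontal axis) and of 36 mesenchymal genes (vertical axis), 1 point per array, with a symbol for each of the 9 clones. The 2H1 arrays lie at the lowest epithelial and highest mesenchymal clone means (7.44 and 8.17), and 2C11 lies in the middle (7.86 and 7.97).

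The mean of the 36 mesenchymal genes minus that of the 92 epithelial genes, a score of the transition, was 0.74 and 0.72 in the 2H1 arrays and 0.15 and 0.07 in the 2C11 arrays, and the groups did not overlap. The clone mean was 0.73 ± 0.01 (SD, n = 2) in 2H1, the highest of the 9 clones, and 0.11 ± 0.06 in 2C11, with 4 clones above it. The parental line had the lowest, -0.25, and 3A4 the second highest, 0.51 ± 0.04. The difference between 2H1 and 2C11 of 0.62 was made up of -0.42 in the epithelial and 0.20 in the mesenchymal mean. The pooled SD of replicate arrays was 0.053 for the score. The epithelial mean takes in large falls such as that of MAL2 (-5.13), and the median difference of the 92 genes was -0.16. Of these 92 genes 69 did not pass. An exact two-sided permutation of 2 arrays against 2 cannot give a p below 0.333, so the score is a description. Its gene lists were chosen with earlier results of these data known.

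The upstream sequences of 4 genes that fell are shown. They were chosen for an E-box of the kind that ZEB1, SNAI1 and SNAI2 are known to bind. It reads CACCTG. On the opposite strand the same site is written as CAGGTG. Each is the 250 bases before a RefSeq gene start in GRCh38.p14, 5′ to 3′ on the gene's strand, with matches in capitals.
AP1M2 upstream region: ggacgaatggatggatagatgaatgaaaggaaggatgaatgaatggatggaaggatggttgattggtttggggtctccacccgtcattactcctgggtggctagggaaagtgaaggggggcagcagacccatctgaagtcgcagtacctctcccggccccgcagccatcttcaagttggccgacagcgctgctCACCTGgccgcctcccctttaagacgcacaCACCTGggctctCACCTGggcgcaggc
CLDN7 upstream region: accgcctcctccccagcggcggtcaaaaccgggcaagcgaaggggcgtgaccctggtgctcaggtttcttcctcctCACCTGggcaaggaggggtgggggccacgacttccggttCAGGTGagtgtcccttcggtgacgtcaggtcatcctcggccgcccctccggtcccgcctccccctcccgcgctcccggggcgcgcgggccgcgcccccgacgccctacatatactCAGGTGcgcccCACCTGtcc
RAB25 upstream region: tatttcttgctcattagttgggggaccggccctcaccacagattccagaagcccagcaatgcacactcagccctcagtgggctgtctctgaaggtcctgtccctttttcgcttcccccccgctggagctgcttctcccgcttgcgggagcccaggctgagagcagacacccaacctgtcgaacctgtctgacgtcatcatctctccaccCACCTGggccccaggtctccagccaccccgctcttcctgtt
S100A14 upstream region: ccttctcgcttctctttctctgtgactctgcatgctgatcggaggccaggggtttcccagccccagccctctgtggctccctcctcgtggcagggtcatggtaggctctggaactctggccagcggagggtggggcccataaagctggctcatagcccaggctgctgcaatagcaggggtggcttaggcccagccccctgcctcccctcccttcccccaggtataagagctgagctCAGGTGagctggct
The AP1M2 region lies at chr19:10587313-10587562 on the minus strand and holds 3 matches, the nearest ending 10 bases before the start. The CLDN7 region, of 1 of its 2 listed starts, lies at chr17:7262479-7262728 on the minus strand and holds 4, and the region of its other start holds 0. The RAB25 region lies at chr1:156060910-156061159 on the plus strand and the S100A14 region at chr1:153616326-153616575 on the minus strand, with 1 match each. RefSeq regions were matched for 10232 of the 12531 tested genes. CACCTG on either strand was present in 21.2% of 410 regions of genes lower in 2H1 (23.6% of 148 for those at least 2-fold lower), in 14.7% of 339 regions of genes higher in 2H1 (12.9% of 93 for those at least 2-fold higher) and in 16.3% of 14946 regions of all tested genes. The G and C content was 59.5% in the regions of lower genes, 60.8% in those of higher genes and 63.3% overall. Of the other motifs searched, TGANTCA, known from Fos and Jun proteins, was in 7.32% of the regions of lower genes, 7.37% of those of higher genes and 4.56% of all, and GGAATG, known from TEAD factors, in 10%, 13.3% and 9.83%. For genes at least 2-fold lower and at least 2-fold higher the shares were 12.2% and 6.45% for TGANTCA and 8.11% and 18.3% for GGAATG. A match describes the letters, not binding, and genes with several starts count more than once. The 4 sequences shown are examples. CACCTG on either strand also lay upstream of genes higher in 2H1, among them ZEB1, PMEPA1, S100A2 and SMAD7. Whether the motif bears on the falls was not tested.

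Several of the largest differences, beside MAL2, were in genes outside the epithelial lists. PCDH7, a protocadherin, had signals of 11.9 and 11.5 in 2H1 against 582.0 and 478.9 in 2C11 (-5.25 ± 0.10, adjusted p = 4.78e-16). The other clones lay between 82.6 and 1747.4, so that both 2H1 arrays were below all the others. TM4SF18, a tetraspan membrane protein, had 19.6 and 15.1 in 2H1 against 666.6 and 704.6 in 2C11 (-5.15 ± 0.37, adjusted p = 7.86e-08), but here 2C11 was the clone apart, since the other 14 arrays lay between 13.4 and 91.0. A second probe set of TM4SF18 gave -4.95 and one of PCDH7 -5.53. STEAP4, a metalloreductase, was listed at 0.2 in both 2H1 arrays and had 58.1 and 47.0 in 2C11 and 8.5 to 43.2 in the other clones (adjusted p = 3.62e-09). SEC31A, a coat subunit of the vesicles that leave the endoplasmic reticulum, had 166.3 and 208.8 in 2H1 against 919.9 and 804.0 in 2C11. The other 14 arrays lay between 540.4 and 899.6, and the log2 difference was -2.19 ± 0.15 (adjusted p = 3.19e-08), with -1.87 at a second probe set.

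PRKAA2, a catalytic subunit of AMP-activated protein kinase, had 4.4 and 3.5 in 2H1 and 125.0 and 110.4 in 2C11 (-4.29 ± 0.33, adjusted p = 1.6e-07). It was low in 47C2, 16F8 and 45G3 as well, with mean signals of 4.5, 7.95 and 13.35, and lay at 47.4 to 147.8 in the means of the other 4 clones. GALNT3, which starts O-linked glycans, fell to 12.2 and 8.9 from 125.0 and 135.6 (-3.39 ± 0.19, adjusted p = 2.82e-09) and was also low in 47C2, with a mean of 8.35. SYK, a tyrosine kinase, had a log2 difference of -3.31, the adhesion receptor gene ADGRF1 -3.01, the endothelial lipase gene LIPG -2.98 and the receptor adaptor gene GRB14 -2.97. RNF43, a ubiquitin ligase that removes Wnt receptors, fell from 404.9 and 384.7 to 120.5 and 130 (-1.64 ± 0.10, adjusted p = 1.87e-08), under the range of 235.6 to 527.3 of the other clones. All genes with values here, and the 4 before them, passed without any 1 of the 4 arrays. Their sizes depend on the offset where 1 side is dim. With 50 in place of 2.2, PCDH7 gave -3.23, STEAP4 -1.03, PRKAA2 -1.64, GALNT3 -1.57, SYK -1.05, LIPG -0.78 and GRB14 -1.47, all past the threshold.

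**Figure D3:**
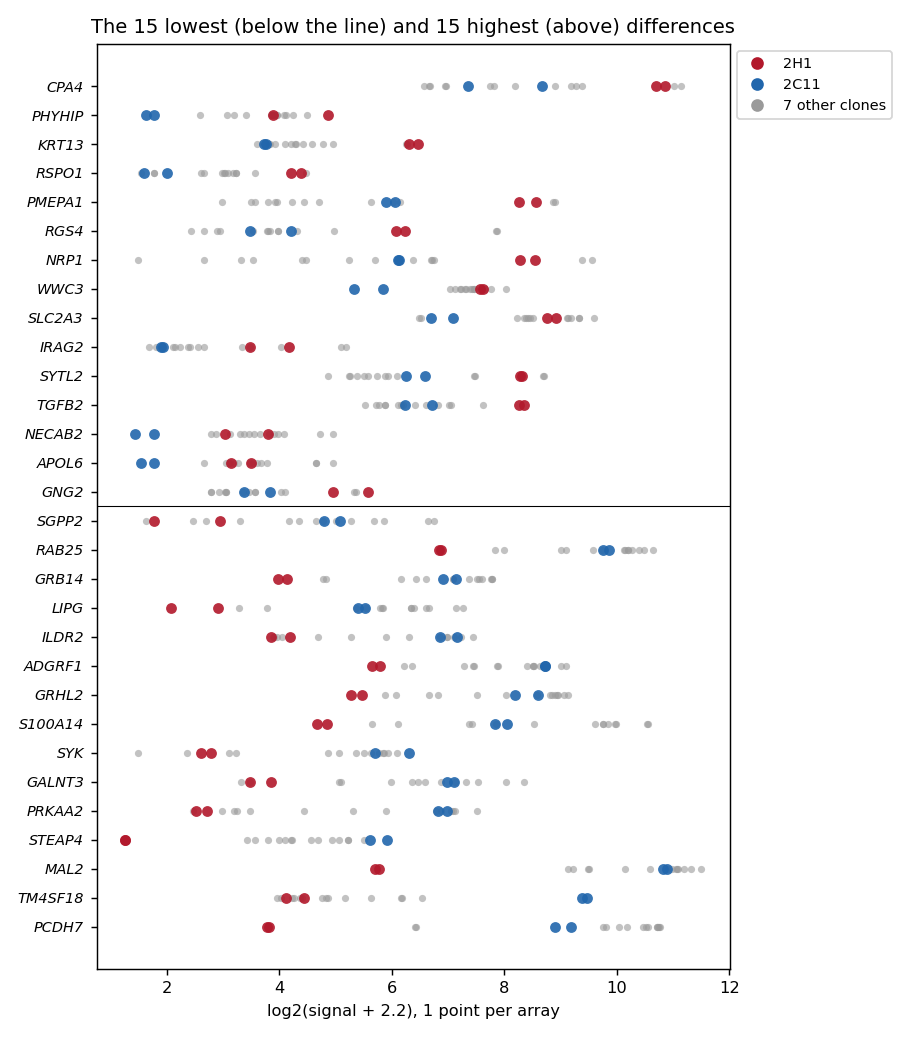
Log2(signal + 2.2) in each of the 18 arrays (horizontal axis, 1 point per array) for the 15 genes with the lowest and the 15 with the highest difference. Points of 2H1 and 2C11 are coloured and the 14 arrays of the other 7 clones are grey, which shows 2H1 outside the other clones for PCDH7 and MAL2, and 2C11 outside them for TM4SF18 and WWC3.

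Of 36 tested genes of transforming growth factor beta signalling 5 rose in 2H1, 1 fell and 30 did not pass. The share that passed was 16.7%, against 4.6% of all tested genes. TGFB2, one of its ligands, had signals of 304.0 and 324.8 in 2H1 and 102.8 and 72.7 in 2C11 (1.84 ± 0.21, adjusted p = 2.36e-05), and both 2H1 arrays lay above the range of 43.7 to 194.2 in the other clones. PMEPA1, a target gene and inhibitor of the pathway, had 305.5 and 375.0 against 64.7 and 57.4 (2.43 ± 0.33, adjusted p = 0.000186). It was higher in 3A4, with a mean of 473.0, and at most 66.0 in the means of the other 6 clones. SMAD7, an inhibitory SMAD, had 157.9 and 153.2 against 99.8 and 86.1 (0.73 ± 0.17, adjusted p = 0.0175). INHBB, an activin subunit, had 28.9 and 21.0 against 8.1 and 6.3 (1.52 ± 0.39, adjusted p = 0.0335). The gene that fell was ACVR2B, an activin receptor. The median of the list was 0.17, and 0.05 without 2H1 replicate 2. The number that rose was 2 without 2H1 replicate 1, 2 without 2H1 replicate 2, 3 without 2C11 replicate 1 and 2 without 2C11 replicate 2. TGFB2 and PMEPA1 passed in all 4 of these fits. SMAD7 passed only without 2C11 replicate 1 (adjusted p = 0.133, 0.0892 and 0.136 in the fits without 2H1 replicate 1, 2H1 replicate 2 and 2C11 replicate 2). INHBB passed in none (0.261, 0.089, 0.108 and 0.166 without 2H1 replicate 1, 2H1 replicate 2, 2C11 replicate 1 and 2C11 replicate 2) and gave 0.39 with an offset of 50. ACVR2B did not pass without 2H1 replicate 1 (0.093) or 2C11 replicate 1 (0.128).

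Integrins and laminins, the receptors for the matrix and one of its components, gave 8 higher and 1 lower of 21 tested. This was 42.9%, against 4.6% of all tested genes. The median was 0.24 (0.36 without 2H1 replicate 1 and 0.38 without 2C11 replicate 2). ITGB4, of the laminin receptor in hemidesmosomes, had 640.5 and 654.8 in 2H1 and 289.5 and 343.3 in 2C11 (1.03 ± 0.14, adjusted p = 0.000158), with the other clones at 181.3 to 557.9. ITGA2 lay at 709.9 and 723.2 against 430.3 and 394.1 (0.80 ± 0.10, adjusted p = 0.000117). ITGA3 lay at 472.2 and 465.9 against 235.6 and 304.0 (0.80 ± 0.13, adjusted p = 0.00105). Parental cells and 3A4 were higher than 2H1 for ITGA3, with means of 715.6 and 529.1. These 3 integrins passed without any 1 of the 4 arrays, and the number of the list that rose was then 4 in each of the fits without 2H1 replicate 1, 2H1 replicate 2, 2C11 replicate 1 or 2C11 replicate 2. The 1 laminin chain that was lower, LAMA2 (-0.69, adjusted p = 0.0126), did not pass in any of them (adjusted p = 0.0591 to 0.0964).

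The 3 highest differences were in CPA4, PHYHIP and KRT13. CPA4, a carboxypeptidase, had 1845.9 and 1655.8 in 2H1 against 404.8 and 161.4 in 2C11 (2.76 ± 0.30, adjusted p = 1.36e-05), and the 2C11 arrays were far apart from each other. KRT13, a keratin of stratified epithelia, had 86.7 and 77.1 against 11.1 and 11.3 (2.65 ± 0.25, adjusted p = 2.21e-06). PHYHIP was dim, at 12.6 and 26.8 against 1.2 and 0.9. NRP1, a receptor for semaphorins and vascular endothelial growth factor, had 308.7 and 370.4 against 67.0 and 67.5 (2.29 ± 0.27, adjusted p = 4.05e-05), and RGS4, a regulator of G proteins, 72.8 and 65.0 against 16.2 and 8.9 (2.31 ± 0.37, adjusted p = 0.000922). For NRP1, RGS4 and CPA4 the highest clone was 3A4, with means of 710.4, 230.4 and 2171.0. SLC2A3, the glucose transporter GLUT3, had 430.3 and 479.7 against 134.3 and 101.5 (1.94 ± 0.13, adjusted p = 4.8e-08), and here 3A4 was the lowest clone, with a mean of 88.2. Its probe sets may also match the near-identical SLC2A14. WWC3, a gene of the Hippo pathway on the X chromosome, had 188.2 and 194.3 in 2H1 and 37.8 and 55.5 in 2C11 (2.01 ± 0.18, adjusted p = 9.6e-07), and 2C11 lay below the range of 128.3 to 259.8 of the other clones. FOSL2, a Fos family factor, was higher by 1.29 ± 0.15 (adjusted p = 2.49e-05) and EFNA5, an ephrin, by 1.64 ± 0.22 (adjusted p = 0.000132). All genes of this paragraph passed without any 1 of the 4 arrays. With an offset of 50 the differences were 0.44 for PHYHIP, 1.11 for KRT13, 0.93 for RGS4, 1.33 for WWC3 and 0.98 for EFNA5, all past the threshold, and the FOSL2 probe set of highest variance gave 1.34 and did not pass (adjusted p = 0.129).

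Some of the genes lay next to each other. In the HOXB cluster on chromosome 17, whose genes set position along the body axis and are expressed in the colon, all 9 tested genes had positive differences and 4 passed. Over all 12531 tested genes 5878 differences were positive and 4.6% passed. HOXB9 had 327.9 and 438.8 in 2H1 against 166.4 and 186.3 in 2C11 (1.10 ± 0.16, adjusted p = 0.00039), HOXB5 653.2 and 647.1 against 364.5 and 340.3 (0.88 ± 0.11, adjusted p = 6.35e-05), and HOXB8 1024.8 and 915.4 against 634.7 and 597.0 (0.65 ± 0.10, adjusted p = 0.000636). HOXB6 (0.57, adjusted p = 0.0364) did not pass without 2H1 replicate 1 (0.0826), 2H1 replicate 2 (0.267), 2C11 replicate 1 (0.151) or 2C11 replicate 2 (0.137), and the other 3 passed in each of these fits. With the probe sets of highest variance HOXB8 gave 0.54 (adjusted p = 0.502) and HOXB9 0.42 (0.22). On chromosome 1 the calcium-binding S100A2 had 1880.2 and 1638.0 against 853.6 and 854.9 (1.04 ± 0.11, adjusted p = 6.05e-06), above all other clones, and its neighbours S100A3 (1.07, adjusted p = 0.0228) and S100A4 (0.42, 0.0397) were higher too. S100A2 passed without any 1 of the 4 arrays. S100A4 passed in none of these fits (0.0736 to 0.263), and S100A3 passed only without 2C11 replicate 1 (0.152 without 2H1 replicate 1, 0.108 without 2H1 replicate 2 and 0.227 without 2C11 replicate 2, with a difference of 0.69) and gave 0.61 with an offset of 50. GRB14, COBLL1 and GALNT3 were a run of 3 tested neighbours lower in 2H1 on chromosome 2. No chromosome moved as a whole, since the median differences of chromosomes 1 to 22 and X lay between -0.06 and 0.03. In windows of 25 neighbouring tested genes the medians lay between -0.27 and 0.28. The highest were on chromosome 17, around the HOXB cluster, and the lowest on chromosome 6.

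Of 21 tested genes of cholesterol synthesis 4 fell and none rose (19%, against 4.6% of all tested genes, median -0.29). Among those that fell was INSIG1, a sterol-regulated brake of the pathway. It went from 1081.2 and 1064.5 to 619.3 and 722.7 (-0.68 ± 0.11, adjusted p = 0.00103). The count was 2 without 2H1 replicate 1, 1 without 2H1 replicate 2, 1 without 2C11 replicate 1 and 3 without 2C11 replicate 2, and INSIG1 passed in all of these. Of 38 tested p53 targets 4 rose and none fell (10.5%, against 4.6% of all tested genes, median 0.20). Among those that rose was the stress cytokine gene GDF15, at 1119.7 and 1149.8 against 581.6 and 648.8 (0.88 ± 0.16, adjusted p = 0.00363). The count was 1 without 2H1 replicate 1, 2 without 2H1 replicate 2, 2 without 2C11 replicate 1 and 3 without 2C11 replicate 2, and GDF15 passed in all of these. By limma none of 26 Notch pathway genes, 41 genes of the tricarboxylic acid cycle and glutamine metabolism, 34 chaperones and genes of the unfolded protein response, 52 DNA replication genes, 62 oxidative phosphorylation genes and 26 serine and one-carbon genes passed with all arrays. Their medians lay between -0.07 and 0.05. At an unadjusted p under 0.05 the numbers were 1, 9, 2, 5, 4 and 2 in that order. The share of all tested genes at that level is not given, so these numbers are not set against it. By limma 4.6% of all tested genes passed.

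**Figure D4:**
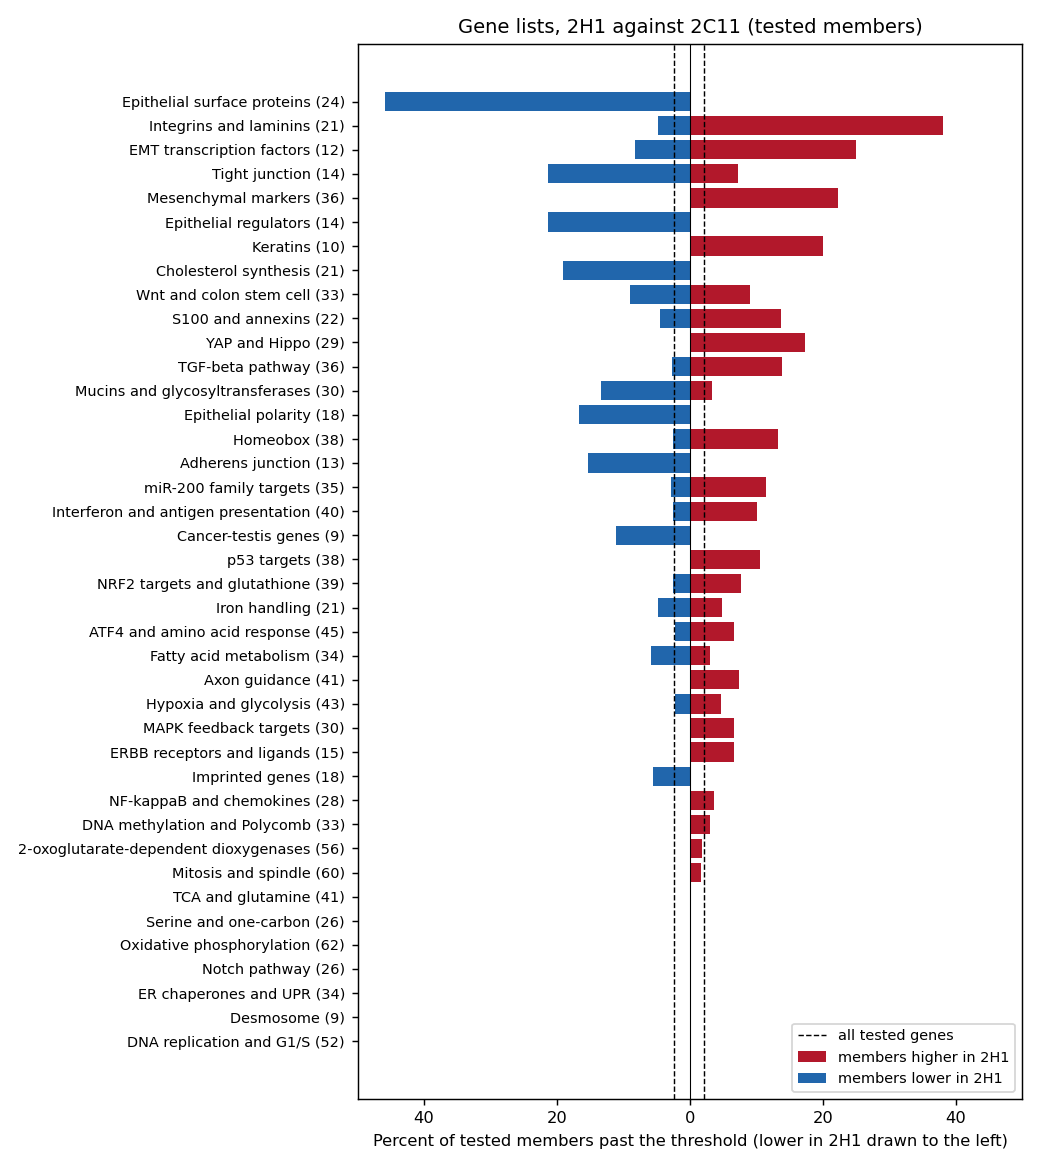
Percent of the tested members of each gene list (number in brackets) that were higher in 2H1 (to the right) or lower (to the left), with the share of all 12531 tested genes as dashed lines. Epithelial surface proteins (11 of 24 lower) and integrins and laminins (8 of 21 higher) reach farthest.

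Counting genes in which both arrays of a clone lay above or below all 16 other arrays shows which clone of the pair was more unlike the rest. This held for 692 tested genes in 2H1 (299 above, 2.39%, and 393 below, 3.14%). More genes lay apart in 17H5 (705), parental cells (1860) and 3A4 (1948). In 2C11 there were 188 (0.75% above and 0.75% below), the fewest of the 9 clones. The count rises where a clone keeps 1 array: it was 1484 for 2H1 without 2H1 replicate 1 and 1665 without 2H1 replicate 2, and 1234 for 2C11 without 2C11 replicate 1 and 970 without 2C11 replicate 2. Of the 309 genes lower in 2H1, 123 had 2H1 apart, 9 had 2C11 apart, 1 had both and 176 neither. Of the 268 genes higher in 2H1, 78 had 2H1 apart, 26 had 2C11 apart and 164 neither. These splits describe the called genes and use the same arrays as the calls.

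The differences of the same genes between other clones were read from arrays of neither 2H1 nor 2C11. Those arrays had entered the calls of the pair through the shared spread, the filter and the choice of probe set. Of the 309 genes lower in 2H1, 80.3% lay lower in 3A4 (R132C) than in parental cells, against 51.4% of all tested genes, and 57.9% were called lower there (19.6% of all). Of the 268 genes higher in 2H1, 72.8% lay higher in 3A4 (48.6% of all), and 54.5% were called higher (17.6%). In 47C2 (R172K) 71.2% of the genes lower in 2H1 lay lower than in parental (49.3% of all), and in 45G3 59.5% (49.2%). For the genes higher in 2H1 the shares that lay higher were 56.7% in 47C2 (50.7% of all) and 50.4% in 45G3 (50.8%). In 8G12, 17H5 and 16F8 the shares were 42.4%, 40.8% and 40.8%, against 45%, 47.6% and 47.8% of all tested genes, and the genes higher in 2H1 lay higher in 46.6%, 38.8% and 31%, against 55%, 52.4% and 52.2% of all. These comparisons share the parental arrays. Between the R172K clones, with no parental array, 76.1% of the genes lower in 2H1 were lower in 47C2 than in 45G3 (47.9% of all) and 85.6% of those at least 2-fold lower. Of the genes higher in 2H1 63.4% were higher in 47C2 (52.1% of all), and 50.6% of those at least 2-fold higher. Between the R140Q clones 48.9% were lower in 17H5 than in 8G12 (54.6% of all). Genes are not independent replicates, so these shares carry no test.

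**Figure D5:**
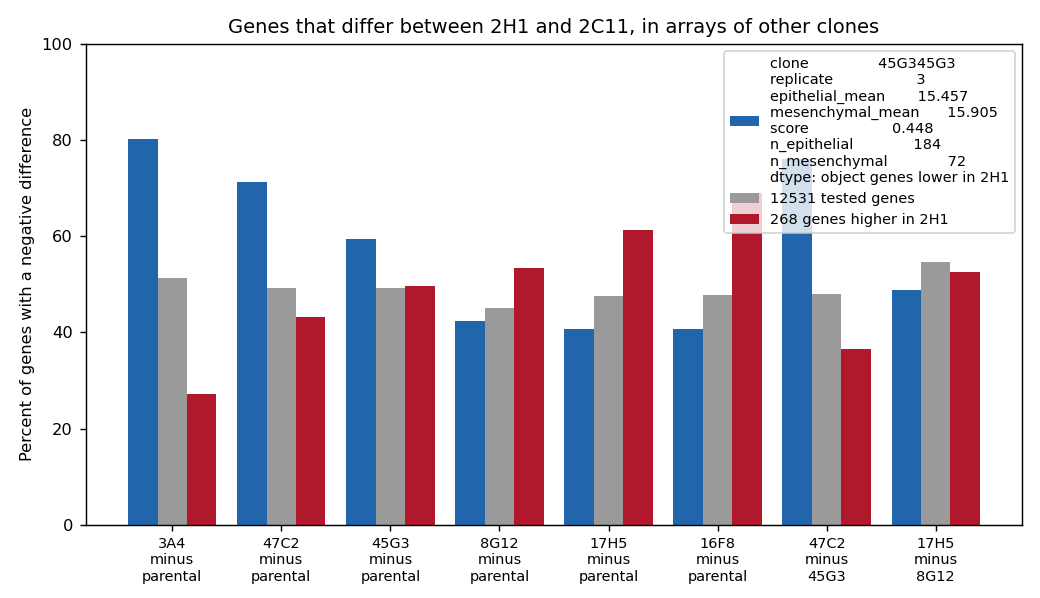
Percent of genes with a negative difference (vertical axis) in 8 comparisons of other clones (horizontal axis), for the 309 genes lower in 2H1, all 12531 tested genes and the 268 genes higher in 2H1. The bars of the lower genes stand highest in 3A4 minus parental (80.3%), 47C2 minus 45G3 (76.1%) and 47C2 minus parental (71.2%).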

How the data were processed

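Total RNA of 18 untreated cultures of 9 HCT116 clones was amplified, labelled with biotin and hybridised to 1-colour arrays of 54675 probe sets. The deposited values are linear intensities made by the authors with MAS5, per the submitters' processing notes; which version was run is not given in the sources used here. Values were taken as log2(signal + 2.2), 2.2 being their 25th percentile. The probe set of highest mean stood for each gene (41091 probe sets had 1 symbol, 19775 genes), and the 12531 genes with both arrays of at least 1 clone at or above the array median were tested. limma 3.58.1 (R 4.3.3) fitted 1 mean per clone over 18 arrays with a variance trend (9 residual degrees of freedom) and Benjamini-Hochberg adjustment over all tested genes, threshold 0.05, two-sided. With 2 arrays per clone, p-values measure the spread between replicate cultures. On simulated data for this comparison (12531 genes, 200 changed) the fit recovered 36% of differences of 0.5 on the log2 scale. It recovered 86% of 1, 98% of 1.5 and 100% of 2, and 4.19% of the calls were false. The simulated noise was normal, independent between genes and arrays, and had the spread that the fit assumes. These rates therefore need not hold for the real arrays. Named genes are IDH1, IDH2, ZEB1, ZEB2, CDH1, EPCAM, VIM, CDH2, the 15 highest and 15 lowest differences past the threshold, up to 6 members of each list described, up to 6 genes for each clone lying apart and up to 4 of a run or chromosome, without LOC names, Y-linked genes and XIST. Alternatives were other offsets, filters, probe sets, normalization and variance models, a replicate block, a poly-A term and leaving out each array. The comparison and the 43 gene lists were chosen with earlier results of these data known. Figures used matplotlib 3.10.9.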

Additional observations from a re-analysis of the deposited data

How the results depend on the processing

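The count of 577 genes was 412 (probe set of highest variance) to 772 (poly-A term) in the 10 alternatives that kept all arrays of the pair, and within 1.5 times of the main count. Leaving out 1 array of the pair gave 189 to 321 genes, 82 to 154 higher and 107 to 190 lower; such fits have fewer arrays. Whether the number of arrays or the values of single arrays lowered these counts was not tested. The replicate numbers share no stated origin, the correlation of deviations between same-numbered arrays of the pair was 0.029, and with a replicate block 587 genes passed, 550 of them also without it. With the poly-A term 17H5 and 8G12 differed in 805 genes and 47C2 and 45G3 in 768; the cause was not tested. The difference in the score of 0.62 became 0.56 with an offset of 16, 0.46 with 50, 0.56 without the filter on dim probe sets and 0.79 with the probe sets of highest variance. Genes with a clone apart numbered 760 to 1665 for 2H1 and 223 to 1234 for 2C11 without 1 array. The share lower in 3A4 was 82.8% to 85% without 1 array, and the share higher was 70.8% to 79.6%, and 79.5% with the probe sets of highest variance. Of differences and of medians larger than 1 SD of replicate arrays, those reversed were the difference of IDH2 without 2H1 replicate 2 (0.143; -0.489 to 0.143 without 1 array) and, with the probe sets of highest variance, the medians of desmosome genes (0.037) and EMT transcription factors (0.265). The medians of 14 other lists, at most 0.078 in size, also changed sign in at least 1 alternative. None of 63 called genes named reversed in any alternative that gave it a value. Only 61 of them had a value with the probe sets of highest variance, and 61 with the filter on the mean over all arrays. Without the filter 5 lost the threshold (S100A4, HOXB6, CLDN2, SNAI2 and INHBB), with the probe sets of highest variance 5, with no variance trend 2 (EPCAM and S100A4), with only the 4 arrays of the pair 3 (S100A4, HOXB6 and CLDN2) and with the poly-A term 2 (CLDN2 and INHBB).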
